A study of Mus musculus with 17 samples.

Results

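The islets described here are those of mice on a high-fat diet (HFD) in the *Pax4* R192H experiment, with 3 wildtype and 3 homozygous *Pax4* R192H samples out of 17 islet samples with bulk RNA-seq. The labels call them biological replicates, and the sources used here do not say whether each came from 1 mouse or from pooled mice. They were taken by their genotype and diet labels, and no sample was left out. All came from C57BL6/N males, 16 weeks old, on the HFD for the last 4 weeks, and both genotypes came as littermates from crosses of heterozygous parents. The knock-in replaces an arginine with a histidine in both copies of mouse *Pax4* and carries the name of the matching human variant. The mutation was present in every cell from conception, so the islets had also developed with it. For comparison, there were 3 wildtype and 3 *Pax4* R192H samples from males of 12 weeks on standard chow (SCD), so that diet and age differ together between these and the HFD samples. A further 5 samples came from mice 20 weeks old and on the HFD for 8 weeks, 3 of them *Pax4* βiKO, in which tamoxifen activates a Cre recombinase driven by the *Pdx1* promoter to delete floxed *Pax4*, and 2 from tamoxifen-treated floxed controls without Cre.

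Pancreatic islets are clusters of endocrine cells, most of them insulin-producing β cells in the mouse, set in a pancreas whose bulk is acinar tissue that makes digestive enzymes. A β cell takes up glucose through GLUT2, closes its potassium channels as ATP rises and releases insulin granules when calcium enters. Because proinsulin is folded in the endoplasmic reticulum (ER), β cells hold much of the machinery for ER import, folding and degradation of secreted proteins, and a high-fat diet raises the demand on it. PAX4 is a transcription factor that directs endocrine precursors towards the β cell fate.

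The files hold RSEM estimates of the reads per gene. Totals were between 32966014 and 42679645 per HFD sample, of which 2 genes without a name in the annotation used took between 43.7% and 53.3%. Values are given below as CPM, counts relative to a library size scaled by edgeR's TMM method, and comparisons between genotypes as log2 fold changes (R192H over wildtype) with standard errors. A gene was called when the adjusted p-value of edgeR's quasi-likelihood test (Benjamini-Hochberg over all 19137 tested genes) was below 0.05 and the log2 fold change was beyond 0.5 in either direction. No read was assigned to *Pax4* in any of the 6, so the genotype labels could not be checked on it. The islet hormones were abundant in each sample, with 24651 to 34379 CPM of *Ins1*, 25302 to 46040 CPM of *Ins2*, 3857 to 6934 CPM of *Gcg* and 621 to 782 CPM of *Sst*. None of these 4 was called (log2 fold changes of 0.13, 0.38, -0.06 and -0.07), and the groups overlapped in each.

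On the HFD, 437 genes (2.28% of those tested) were called, 280 higher (1.46%) and 157 lower (0.820%) in *Pax4* R192H islets. With library sizes that leave out the 2 most abundant genes and no TMM scaling, the median log2 fold change of all genes moved from -0.01 to -0.30, and 149 genes were called higher and 1068 lower. All 437 genes kept their direction there and 300 were still called, with the median of the 280 higher genes at 0.73. Levels below are relative to the bulk of the genes. In each of the 437, every *Pax4* R192H sample lay on one side of every wildtype sample. The groups did not overlap in 13.0% of all tested genes with R192H higher and in 9.89% with R192H lower. Leaving out wildtype sample 1, 2 or 3 gave 140, 498 or 93 called genes, and leaving out *Pax4* R192H sample 1, 2 or 3 gave 133, 107 or 157. In all 6 fits that leave out 1 HFD sample, 71 of the 437 genes were called, 46 higher and 25 lower.

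**Figure D1:**
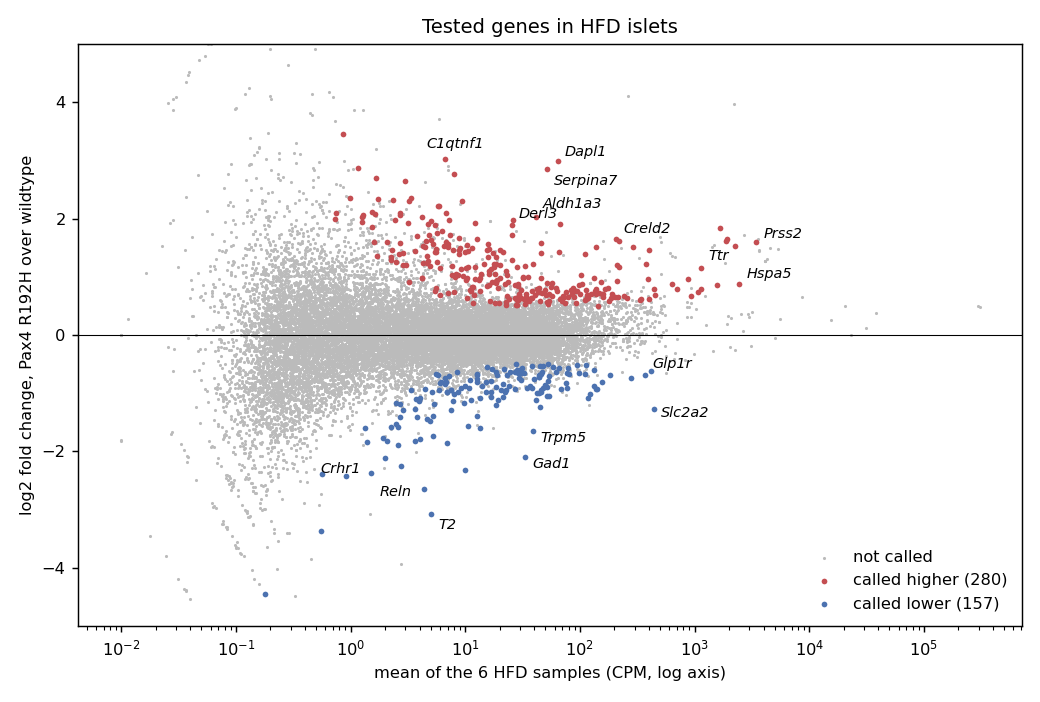
Each point is a tested gene, with its mean level in the 6 HFD samples (CPM, log axis) and its log2 fold change of *Pax4* R192H over wildtype. The 280 genes called higher are red and the 157 called lower are blue, and 51 genes, 1 of them called, lie beyond the axis limit of 5 and are not drawn.

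Genes were ranked by size among called genes with a mean of at least 1 CPM and no overlap, leaving out unnamed genes and gene models. Within these limits, *C1qtnf1* and *Dapl1* had the largest increases. Over all called genes, the largest increase was 3.46 on the log2 scale, and the largest decrease had a size of 6.19. *C1qtnf1* (ENSMUSG00000017446; chromosome 11 of GRCm38, 118428203 to 118449963), which encodes a secreted C1q and TNF related protein, had 0.986, 2.15 and 1.20 CPM in the wildtype samples and 12.0, 14.0 and 9.22 CPM in the *Pax4* R192H samples. Its log2 fold change was 3.03 ± 0.36 (edgeR adjusted p = 0.00225). *Dapl1* (ENSMUSG00000026989; chromosome 2, 59484653 to 59505020), a gene related to death-associated protein, had 10.5, 19.7 and 13.0 CPM in wildtype and 110.9, 117 and 114 CPM in *Pax4* R192H samples. The lowest *Pax4* R192H sample was thus far above the highest wildtype sample, and *Dapl1* had the lowest p-value of all genes (log2 fold change 2.99 ± 0.24, edgeR adjusted p = 0.000218).

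*Serpina7*, which encodes thyroxine-binding globulin, had 7.06, 20.6 and 9.74 CPM in wildtype and 79.4, 98.9 and 92.2 CPM in *Pax4* R192H samples, a log2 fold change of 2.86. *Inhba*, which encodes the activin A subunit, rose by 2.70 on the log2 scale from wildtype levels of 0.286 to 0.614 CPM. *Chil6*, a chitinase-like gene, rose by 2.35, and *Aass*, whose product starts lysine degradation, by 2.30. The other members of the 12 largest increases within the same limits belong to DNA replication or repair (*Mcm10*, *Rad51ap1*), chromosome segregation (*Tpx2*, *Nuf2*), cell division (*Cdca3*) and histones (*Hist1h3g*). *Slc39a11*, which encodes a zinc transporter, rose by less but evenly, with 12.7, 16.3 and 14.9 CPM in wildtype against 36.9, 37.5 and 33.4 CPM in *Pax4* R192H samples (log2 fold change 1.30 ± 0.12, edgeR adjusted p = 0.000600).

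Within the limits given for the increases, the largest called decrease was in *T2* (ENSMUSG00000058159; chromosome 17, 8355992 to 8423513). It had 9.36, 8.39 and 9.27 CPM in wildtype and 0.501, 1.05 and 1.60 CPM in *Pax4* R192H samples (log2 fold change -3.08 ± 0.31, edgeR adjusted p = 0.000600). *Gad1* (ENSMUSG00000070880; chromosome 2, 70553072 to 70602014) encodes the glutamate decarboxylase that makes GABA, a transmitter stored in β cells. It had 61.6, 41.9 and 57.3 CPM in wildtype and 8.80, 12.2 and 16.7 CPM in *Pax4* R192H samples (log2 fold change -2.09 ± 0.21, edgeR adjusted p = 0.000600). No *Pax4* R192H sample came near the lowest wildtype sample in either gene.

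Channel and receptor genes were also among the 12 largest called decreases within the same limits. *Kcnj12*, an inward rectifier potassium channel, had 4.99, 3.79 and 4.87 CPM in wildtype and 0.787, 1.09 and 0.987 CPM in *Pax4* R192H samples (log2 fold change -2.25 ± 0.24, edgeR adjusted p = 0.000889). *Reln*, which encodes the secreted protein reelin, fell by 2.64 on the log2 scale, *Crhr1*, the receptor of corticotropin-releasing hormone, fell by 2.37, and *Mcoln3*, a cation channel of endosomes and lysosomes, fell by 2.11. The rest of them were *Cyp4f39*, *Dok7*, *Lancl3*, *Tmem151b*, *Trpm5* and *Carmil3*, with log2 fold changes between -1.85 and -1.60. Of the named genes above, *Dapl1*, *C1qtnf1*, *Serpina7*, *Chil6*, *Aass*, *Cdca3*, *Slc39a11*, *T2*, *Gad1*, *Kcnj12*, *Reln*, *Mcoln3*, *Cyp4f39* and *Trpm5* were called in all 6 fits that leave out a sample. Of the others, *Tmem151b* was called in 5 of the 6, *Lancl3* in 4, and *Crhr1*, *Tpx2* and *Carmil3* in 3. *Inhba*, *Hist1h3g*, *Rad51ap1* and *Dok7* were called in 1, and *Mcm10* and *Nuf2* in 0.

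Exocrine RNA also differed between these islets. The acinar markers are digestive enzymes, other acinar proteins and acinar transcription factors. All 30 tested markers had a log2 fold change above 0 (as did 48.6% of all genes). Of them, 28 lay higher without overlap (13.0% of all genes), and 11 were called higher (1.46%). Their median log2 fold change was 1.52, against -0.01 for all tested genes. Their summed level was 22295, 29859 and 19134 CPM in wildtype and 116440, 44210 and 45514 CPM in *Pax4* R192H samples. *Pax4* R192H sample 1 was the highest of its group in all 30 markers, at a median of 2.66 times the mean of the other *Pax4* R192H samples. *Prss2*, a trypsinogen gene, had 1623, 2170 and 1366 CPM in wildtype and 8982, 3343 and 3302 CPM in *Pax4* R192H samples (log2 fold change 1.60 ± 0.38, edgeR adjusted p = 0.0451). *Prss3* and *Try5* rose by 1.98 and 1.84. Trypsinogen genes are near-identical copies, so their reads can be split between them in more than 1 way. Without *Pax4* R192H sample 1, no acinar marker was called, all 30 lay above 0 and the median was 0.92, and none was called without wildtype sample 3 either. In a bulk sample, fewer cells of a type and less RNA per cell cannot be told apart.

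Markers of other cells held few calls. In the same sample 1 the 6 tested intestinal epithelial markers summed to 176 CPM, against 62.98 to 77.0 CPM in the other HFD samples, and the 6 tested T and B cell markers to 9.48 CPM, against 0.339 to 2.45 CPM. No endothelial (12 tested), stromal (12), macrophage (16), Schwann (6), red cell (5), adipocyte (1), intestinal (6), T and B cell (6) or *Reg* family (6) marker was called. All 6 *Reg* genes were above 0, with a median of 2.04. They summed to 817 CPM in *Pax4* R192H sample 1, against 109 to 444 CPM in the other HFD samples. The duct list had 1 gene of 12 called higher (1.46% of all genes were), the keratin *Krt18*, which was called in 0 of the 6 fits that leave out a sample. Of the 12, 8 were above 0 and 5 lay higher without overlap (13.0% of all genes), with a median of 0.32. The duct sum was 203, 223 and 235 CPM in wildtype and 308, 311 and 312 CPM in *Pax4* R192H samples, without overlap. With the mean log2 CPM of the acinar markers as a covariate in the model, 0 genes were called, 1378 had an unadjusted p-value below 0.05 against 3041 without it, and 433 of the 437 genes kept their direction, by edgeR. DESeq2, without the covariate, called 918 genes. The covariate did not overlap between the genotypes on the HFD, so the part of acinar RNA in the results below was not tested beyond these values.

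**Figure D2:**
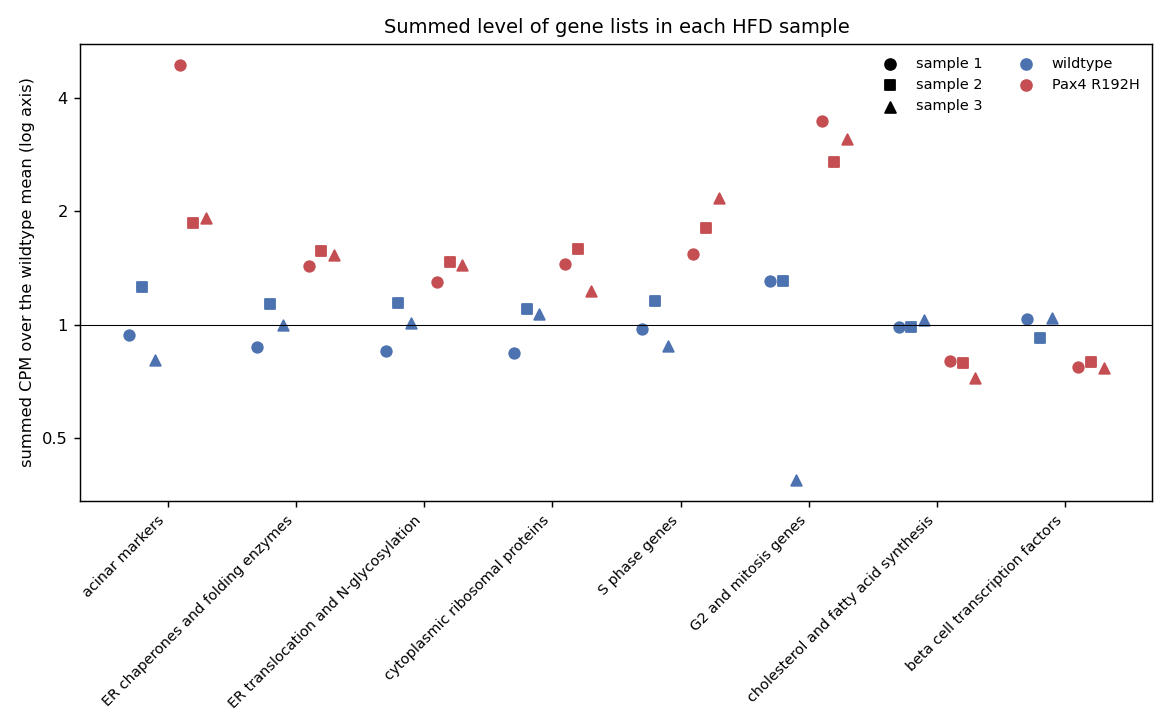
Summed CPM of 8 gene lists in each HFD sample, divided by the mean of the 3 wildtype samples (log axis), with wildtype in blue, *Pax4* R192H in red and 1 symbol per sample number. The acinar sum of *Pax4* R192H sample 1 was 4.90 times the wildtype mean, while its ER chaperone sum was 1.43 times it, below those of the other *Pax4* R192H samples.

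Many genes of ER protein folding were called higher. Of 37 tested ER chaperones and folding enzymes, 35 had a log2 fold change above 0, 29 lay higher without overlap (13.0% of all genes) and 1 lower (9.89%), and 12 were called higher (1.46%), with 0 called lower and a median of 0.56. Their summed level was 10294, 13361 and 11746 CPM in wildtype and 16885, 18531 and 18085 CPM in *Pax4* R192H samples. The wildtype and *Pax4* R192H sums did not overlap, and the acinar-rich sample 1 had the lowest sum of the *Pax4* R192H samples. With the acinar covariate the median was 0.65 and no member was called. Without 1 sample, between 2 (without wildtype sample 3) and 17 (without wildtype sample 2) members were called.

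*Hspa5* encodes BiP, the main chaperone of the ER lumen. It had 1377, 2081 and 1702 CPM in wildtype and 3159, 3176 and 3170 CPM in *Pax4* R192H samples, the latter nearly equal (log2 fold change 0.88 ± 0.20, edgeR adjusted p = 0.0344, called in 1 of the 6 fits without a sample). *Hsp90b1*, which encodes the chaperone GRP94, had 732, 938 and 818 CPM in wildtype and 1346, 1574 and 1377 CPM in *Pax4* R192H samples, and rose by 0.79 ± 0.15 (edgeR adjusted p = 0.0168). The largest change of the list was in *Creld2* (ENSMUSG00000023272; chromosome 15, 88819646 to 88826683), whose product resides in the ER and is secreted under stress. It had 76.8, 138 and 83.7 CPM in wildtype and 302, 349 and 288 CPM in *Pax4* R192H samples (log2 fold change 1.65 ± 0.25, edgeR adjusted p = 0.00562). *Fkbp11*, a prolyl isomerase, rose by 1.42, *Sdf2l1*, a partner of BiP, by 1.21 and *Prdx4*, a peroxidase of the ER, by 1.19. *Creld2* and *Fkbp11* were called in all 6 fits that leave out a sample.

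Of 25 tested genes of ER-associated degradation (ERAD), which returns misfolded proteins to the cytosol, 22 were above 0 and 4 were called higher (1.46% of all genes were), with a median of 0.31. Without wildtype sample 3, 1 was called, and 2 without wildtype sample 1 or *Pax4* R192H sample 1 or 3. *Derl3*, a channel component of ERAD, had 7.97, 15.2 and 9.32 CPM in wildtype and 39.6, 41.9 and 38.9 CPM in *Pax4* R192H samples (log2 fold change 1.89 ± 0.24, edgeR adjusted p = 0.00329). *Edem1* and *Edem2*, which mark glycoproteins for degradation, rose by 0.77 and 0.75, and the lectin *Erlec1* by 0.59. All 33 tested genes of ER translocation and N-glycosylation were above 0, and 6 were called higher (1.46% of all genes were; median 0.44). Without wildtype sample 1 or 3 or *Pax4* R192H sample 2 or 3, 2 were called. Among them, *Ssr4*, a translocon-associated protein, had 188, 287 and 208 CPM in wildtype and 526, 578 and 484 CPM in *Pax4* R192H samples (log2 fold change 1.22 ± 0.17, edgeR adjusted p = 0.00429). *Sec11c*, a signal peptidase subunit, rose by 1.17, and the oligosaccharyltransferase subunits *Dad1* and *Krtcap2* rose by 0.89 and 0.77. With library sizes that leave out the 2 most abundant genes, the ERAD median was 0.02 and the translocation median 0.17, where that of all genes was -0.30. The acinar-rich *Pax4* R192H sample 1 had the highest ERAD sum of its group (2812 CPM against 2679 and 2778 CPM). Its translocation sum was the lowest (6767 CPM against 7659 and 7508 CPM).

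Of 36 genes of transport between ER and Golgi, 30 were above 0 and 2 were called higher (1.46% of all genes were), or 1 without wildtype sample 1 or 3 or *Pax4* R192H sample 2. *Kdelr3*, a receptor that returns ER residents, had 4.85, 7.40 and 6.25 CPM in wildtype and 20.4, 19.1 and 18.3 CPM in *Pax4* R192H samples (log2 fold change 1.64 ± 0.18, edgeR adjusted p = 0.00102), and *Tmed3*, a cargo receptor, rose by 0.97. Of 11 tested sensors and transcription factors that control these genes, none was called (6 of 11 were above 0 with the acinar covariate and 7 without it), and the median was 0.06. It was -0.24 with library sizes that leave out the 2 most abundant genes and no TMM scaling, -0.027 without wildtype sample 2, 0.15 without *Pax4* R192H sample 2, and 0.21 with 10 of 11 above 0 without wildtype sample 1. *Xbp1* had 183, 215 and 242 CPM in wildtype and 275, 260 and 257 CPM in *Pax4* R192H samples, without overlap but short of the threshold (log2 fold change 0.31, edgeR adjusted p = 0.331). Counts per gene do not separate the spliced from the unspliced form of *Xbp1*. *Pax4* R192H sample 1 had the lowest transport sum of its group (6102 CPM against 6501 and 6463 CPM). It had the highest sum of the sensors and transcription factors (772 CPM against 682 and 697 CPM).

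The integrated stress response, the branch that runs through ATF4, held calls in both directions. Of 46 tested genes, 1 was called higher (1.46% of all genes were) and 2 lower (0.820%), 32 were above 0 and the median was 0.14 (-0.14 with library sizes that leave out the 2 most abundant genes). *Atf4* (log2 fold change 0.02), *Ddit3* (-0.17), *Trib3* (-0.15) and *Asns* (0.28) overlapped between groups and were not called. The called genes were *Pycr1*, a proline synthesis enzyme, which rose by 1.13, *Atf5*, a transcription factor, which fell by 0.94, and the lipoprotein receptor *Vldlr*, which fell by 0.68. *Pycr1* and *Atf5* were called in all 6 fits that leave out a sample and *Vldlr* in 1. *Atf5* had 26.6, 25.2 and 29.4 CPM in wildtype and 12.6, 15.5 and 14.1 CPM in *Pax4* R192H samples. *Txnip*, a glucose-induced gene, had 254, 283 and 290 CPM in wildtype and 418, 408 and 351 CPM in *Pax4* R192H samples and just missed the threshold (log2 fold change 0.51, edgeR adjusted p = 0.0539).

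Promoter windows of 300 bases, 250 before and 50 after the annotated start, were searched in RefSeq (GRCm38.p6) for 3 short motifs on both strands, for 116 of the 143 genes of the ER lists that had a window. The motifs were the ER stress response element (ERSE, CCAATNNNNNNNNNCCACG), the core of the unfolded protein response element (TGACGTGG) and the ATF4 site (TGATGNAAT). The ERSE was found in 8 of 33 chaperone and folding genes (24.2%), in 2 of 18 ERAD genes (11.1%), and in none of 25 translocation, 31 transport and 9 sensor genes. It was found in 0.137% of all 27018 genes with a window and in 0.161% of the 11803 tested ones. Of the genes called higher on the HFD, 6 of 204 with a window held it (2.94%), and of those called lower, 0 of 119. It was also present in *Canx*, *Calr*, *Ero1b* and *Syvn1*, which were not called. The element core was found in 2 chaperone, 2 ERAD and 6 transport genes, *Kdelr3* among them (0.714% of all genes, 0.991% of tested genes), and the ATF4 site in no gene of these lists (1.08% of all genes, 0.568% of tested genes). The 6 genes called higher with an ERSE are shown because they are the members whose promoter letters and RNA level can be read together, with the ERSE in capitals. *Pdia6* and *Dnajc3*, which encode a disulfide isomerase and a BiP co-chaperone, fall outside the rule for named genes and were chosen after their values were seen.
Hspa5 (chr2:34771840-34772139, plus strand): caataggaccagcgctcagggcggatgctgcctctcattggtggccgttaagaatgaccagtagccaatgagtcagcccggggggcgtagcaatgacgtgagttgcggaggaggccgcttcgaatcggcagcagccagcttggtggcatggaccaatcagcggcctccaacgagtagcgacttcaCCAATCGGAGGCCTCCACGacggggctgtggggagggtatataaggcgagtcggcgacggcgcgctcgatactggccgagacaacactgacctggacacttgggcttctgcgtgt
Hsp90b1 (chr10:86705395-86705694, minus strand): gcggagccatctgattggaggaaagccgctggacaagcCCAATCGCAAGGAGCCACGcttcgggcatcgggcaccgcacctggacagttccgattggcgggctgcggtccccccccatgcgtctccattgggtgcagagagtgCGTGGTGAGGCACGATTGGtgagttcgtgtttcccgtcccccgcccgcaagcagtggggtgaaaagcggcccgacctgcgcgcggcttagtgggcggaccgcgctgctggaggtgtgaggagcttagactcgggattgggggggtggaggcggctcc
Creld2 (chr15:88819396-88819695, plus strand): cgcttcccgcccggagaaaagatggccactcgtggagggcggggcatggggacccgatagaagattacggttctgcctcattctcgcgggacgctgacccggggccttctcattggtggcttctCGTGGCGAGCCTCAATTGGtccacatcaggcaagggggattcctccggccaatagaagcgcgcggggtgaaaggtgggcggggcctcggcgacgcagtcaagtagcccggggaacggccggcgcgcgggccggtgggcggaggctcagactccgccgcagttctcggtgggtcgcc
Pdia6 (chr12:17266339-17266638, plus strand): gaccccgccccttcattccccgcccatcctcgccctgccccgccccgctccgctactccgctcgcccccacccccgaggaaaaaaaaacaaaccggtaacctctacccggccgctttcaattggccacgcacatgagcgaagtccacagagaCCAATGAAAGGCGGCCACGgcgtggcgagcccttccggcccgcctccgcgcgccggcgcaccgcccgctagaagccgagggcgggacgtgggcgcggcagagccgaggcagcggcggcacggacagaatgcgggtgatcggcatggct
Dnajc3 (chr14:118937682-118937981, plus strand): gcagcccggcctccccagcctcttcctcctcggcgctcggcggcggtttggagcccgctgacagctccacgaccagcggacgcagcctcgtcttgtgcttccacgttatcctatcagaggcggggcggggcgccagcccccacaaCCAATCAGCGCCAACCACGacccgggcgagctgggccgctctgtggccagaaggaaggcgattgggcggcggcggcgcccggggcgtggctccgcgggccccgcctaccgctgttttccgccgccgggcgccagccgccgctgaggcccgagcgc
Derl3 (chr10:75893148-75893447, plus strand): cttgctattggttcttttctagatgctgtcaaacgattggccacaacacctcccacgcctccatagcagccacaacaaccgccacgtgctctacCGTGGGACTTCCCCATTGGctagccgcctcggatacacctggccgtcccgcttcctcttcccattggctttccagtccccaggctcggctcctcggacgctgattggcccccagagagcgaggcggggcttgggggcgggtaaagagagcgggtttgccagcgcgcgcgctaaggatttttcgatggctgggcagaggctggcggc
The element ends 47 bases before the start in *Hspa5* and 89 bases before it in *Hsp90b1*, which holds a further copy ending at 194 bases. In *Creld2*, *Derl3* and the nearer copy of *Hsp90b1* it lies on the opposite strand. The log2 fold changes of these 6 genes were 0.88 in *Hspa5*, 0.79 in *Hsp90b1*, 1.65 in *Creld2*, 0.95 in *Pdia6*, 0.80 in *Dnajc3* and 1.89 in *Derl3*. A match of letters is a description of the sequence only.

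Few genes of the translation and energy machinery were called. All 79 tested cytoplasmic ribosomal protein genes were above 0, 66 without overlap (13.0% of all genes), and 7 were called higher (1.46% of all genes were; median 0.50). *Rplp0*, a protein of the ribosomal stalk, had 370, 516 and 464 CPM in wildtype and 839, 906 and 732 CPM in *Pax4* R192H samples (log2 fold change 0.88 ± 0.17, edgeR adjusted p = 0.0188). *Rps26* and *Rpl41* rose by 0.73 and 0.68. Ribosomal protein genes have many near-identical pseudogenes, so their counts are uncertain. Without wildtype sample 1, without wildtype sample 3 or without *Pax4* R192H sample 1 or 2, none was called. All 76 nuclear-encoded genes of oxidative phosphorylation were above 0, and 2 were called higher, a share near the 1.46% of all genes (*Ndufa1* of complex I by 0.98 and *Atp5g1* of the ATP synthase by 0.77), with a median of 0.33, or 0.21 with 69 above 0 without wildtype sample 1. Without a sample, *Ndufa1* was called in 5 of 6 fits and *Atp5g1* in 1. None of the 12 tested genes of the mitochondrial genome was called. The 31 proteasome genes were all above 0 with a median of 0.32, and 0 were called. With library sizes that leave out the 2 most abundant genes, 76 of the ribosomal protein, 47 of the oxidative phosphorylation and 19 of the proteasome genes stayed above 0, where the median of all genes was -0.30.

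**Figure D3:**
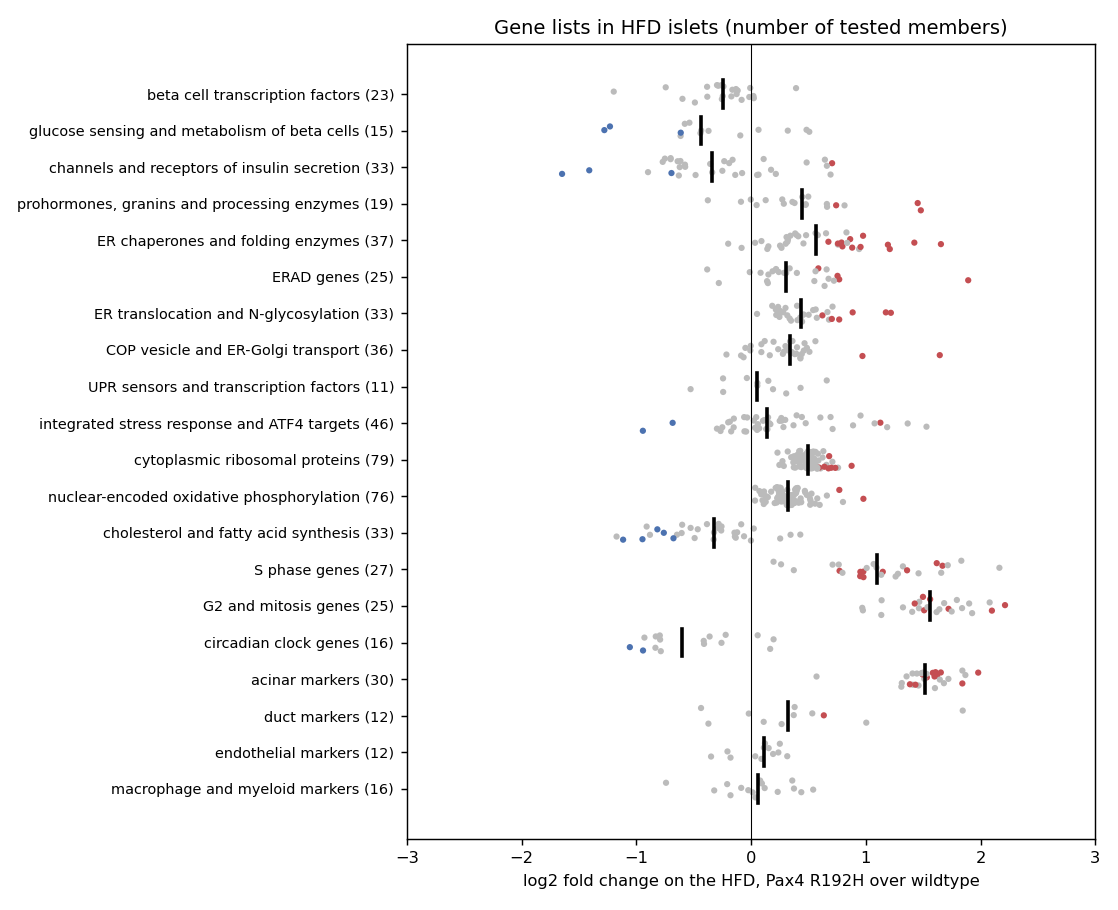
Log2 fold changes on the HFD (R192H over wildtype) of the tested members of 20 gene lists, with genes called higher in red, genes called lower in blue, others in grey and the list median as a black bar. The S phase, G2 and mitosis and acinar lists have medians above 1, the folding list 0.56, and the lists of glucose sensing, channels, cholesterol synthesis and clock genes medians below 0, while 2 points lie beyond the axis limit of 3 and are not drawn.

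The stimulus and secretion pathway of the β cell held calls in both directions, most of them lower. Of 15 tested genes of glucose sensing and metabolism, 3 were called lower (0.820% of all genes were) and 0 higher, with a median of -0.43, or -0.29 without *Pax4* R192H sample 3. *Slc2a2*, which encodes GLUT2, had 701, 489 and 688 CPM in wildtype and 212, 243 and 319 CPM in *Pax4* R192H samples. The mitochondrial glycerol phosphate dehydrogenase *Gpd2* had 55.1, 59.1 and 73.5 CPM in wildtype and 21.3, 35.0 and 23.8 CPM in *Pax4* R192H samples (log2 fold change -1.23 ± 0.19, edgeR adjusted p = 0.00686). *Slc30a8*, the zinc transporter of insulin granules, had 515, 482 and 523 CPM in wildtype and 267, 335 and 392 CPM in *Pax4* R192H samples (log2 fold change -0.61 ± 0.14, edgeR adjusted p = 0.0432). In these 3 genes every *Pax4* R192H sample lay below every wildtype sample.

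Of 33 channels and receptors of insulin secretion, 3 were called lower (0.820% of all genes) and 1 higher (1.46%), and 12 lay lower without overlap (9.89%), with a median of -0.34, or -0.087 without wildtype sample 1 and -0.21 without *Pax4* R192H sample 2. Leaving out wildtype sample 2 gave 6 lower calls, and leaving out any other HFD sample gave 1. *Trpm5*, a calcium-activated cation channel, had 70.8, 38.7 and 69.3 CPM in wildtype and 13.7, 17.4 and 25.9 CPM in *Pax4* R192H samples. *Glp1r*, the receptor of the incretin GLP-1, had 544, 355 and 461 CPM in wildtype and 294, 278 and 269 CPM in *Pax4* R192H samples (log2 fold change -0.69 ± 0.15, edgeR adjusted p = 0.0357). *Trpm2*, another cation channel, fell by 1.41 (edgeR adjusted p = 0.0414). Opposite to these, *Kcnk16* (ENSMUSG00000023387; chromosome 14, 20261376 to 20269199), which encodes the potassium channel TALK-1 of β cells, had 140, 152 and 144 CPM in wildtype and 234, 240 and 238 CPM in *Pax4* R192H samples (log2 fold change 0.71 ± 0.11, edgeR adjusted p = 0.00705). *Slc2a2*, *Gpd2*, *Trpm5* and *Kcnk16* were called in all 6 fits that leave out a sample, and *Slc30a8*, *Glp1r* and *Trpm2* in 1 each.

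None of the 23 tested β cell transcription factors was called, with 20 below 0 and a median of -0.24. Without wildtype sample 1, 7 were above 0 and the median was -0.13. There were 4 called lower with library sizes that leave out the 2 most abundant genes and no TMM scaling. Of all 19137 tested genes, 1068 were called lower there. Their summed level was 982, 878 and 992 CPM in wildtype and 734, 757 and 729 CPM in *Pax4* R192H samples. *Mafa*, which drives insulin transcription in mature β cells, had 123, 185 and 193 CPM in wildtype and 73.3, 78.1 and 67.2 CPM in *Pax4* R192H samples, without overlap (edgeR adjusted p = 0.0823). *Nkx6-1* also did not overlap (edgeR adjusted p = 0.0887), while *Pdx1* had 68.7, 63.3 and 69.8 CPM in wildtype and 62.5, 64.5 and 52.2 CPM in *Pax4* R192H samples (log2 fold change -0.17). *Ucn3*, a peptide of mature β cells, had 121, 132 and 142 CPM in wildtype and 74.6, 92.6 and 90.0 CPM in *Pax4* R192H samples (edgeR adjusted p = 0.0718).

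Peptides of the granule and their processing enzymes lay mostly above 0. Of 19 tested, 16 were above 0, 12 without overlap (13.0% of all genes) and 3 called higher (1.46%), with a median of 0.45. None was called without wildtype sample 3 and 1 without *Pax4* R192H sample 2. *Nucb2* (ENSMUSG00000030659; chromosome 7, 116504369 to 116540584), the precursor of nesfatin, had 157, 282 and 207 CPM in wildtype and 617, 603 and 545 CPM in *Pax4* R192H samples (log2 fold change 1.45 ± 0.24, edgeR adjusted p = 0.00821). *Vgf*, a secreted neuroendocrine peptide precursor, had 6.40, 10.6 and 8.67 CPM in wildtype and 23.2, 26.3 and 22.0 CPM in *Pax4* R192H samples, and rose by 1.48. *Pam*, the enzyme that amidates peptides, rose by 0.74. *Iapp*, which encodes amylin, had 12514, 20764 and 17885 CPM in wildtype and 21932, 26740 and 23616 CPM in *Pax4* R192H samples, without overlap and not called (log2 fold change 0.50, edgeR adjusted p = 0.240). *Chgb* also did not overlap and was not called (log2 fold change 0.81, edgeR adjusted p = 0.105), and *Chga* overlapped. Of 30 genes of granule exocytosis, the tomosyn relative *Stxbp5l* fell by 0.82 and the vesicle GTPase *Rab3d* rose by 0.66 (0.820% and 1.46% of all genes were called lower and higher). Each was called in 1 of the 6 fits that leave out a sample.

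Markers of immature or other islet cells lay on both sides of 0. Of 11 tested dedifferentiation markers, *Serpina7* and *Aldh1a3* were called higher (1.46% of all genes were), while 6 lay below 0 and the median was -0.06. It lay above 0 in 5 of the 6 fits that leave out a sample, at up to 0.26 without wildtype sample 2. *Aldh1a3*, a retinaldehyde dehydrogenase, had 4.56, 28.7 and 15.5 CPM in wildtype and 68.3, 81.6 and 49.1 CPM in *Pax4* R192H samples, so that wildtype samples also differed among themselves. The study names both for these islets, as it does *Ttr* and *Gc* below and *Slc2a2*, *Trpm5*, *Mafa*, *Nkx6-1* and *Ucn3* above. It names *Glp1r* for a β cell cluster of its single-cell data. The genes given here, *Trpm2* and *Slc30a8* among them, were chosen with earlier results of these data known. Counts that hold any of these genes are thus no independent evidence. The ER, ribosomal protein and prohormone lists also hold genes it names. *Aldh1a3* was called in 2 of the 6 fits that leave out a sample. Of 9 α cell markers, *Ttr* and *Gc*, carriers of thyroxine and vitamin D, were called higher (1.46% of all genes were). The list median was -0.04, but 0.33 without wildtype sample 1 and 0.45 with the acinar covariate, and 0 markers were called without wildtype sample 3. *Ttr* had 783, 682 and 641 CPM in wildtype and 1458, 1854 and 1392 CPM in *Pax4* R192H samples. *Gc* had 74.5, 245 and 128 CPM in wildtype and 384, 518 and 378 CPM in *Pax4* R192H samples, and was called in 1 of the 6 fits, *Ttr* in 5. None of the 8 δ, PP and ε cell markers was called, and *Ppy* had 934, 1176 and 761 CPM in wildtype and 1196, 1127 and 2271 CPM in *Pax4* R192H samples. Of 20 genes that β cells normally keep silent, 1 was called higher (1.46% of all genes were), the ornithine aminotransferase *Oat*, which rose by 0.78 and was called in 0 of the 6 fits. *Ldha*, another gene of that list, overlapped (log2 fold change 0.56, edgeR adjusted p = 0.489).

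**Figure D4:**
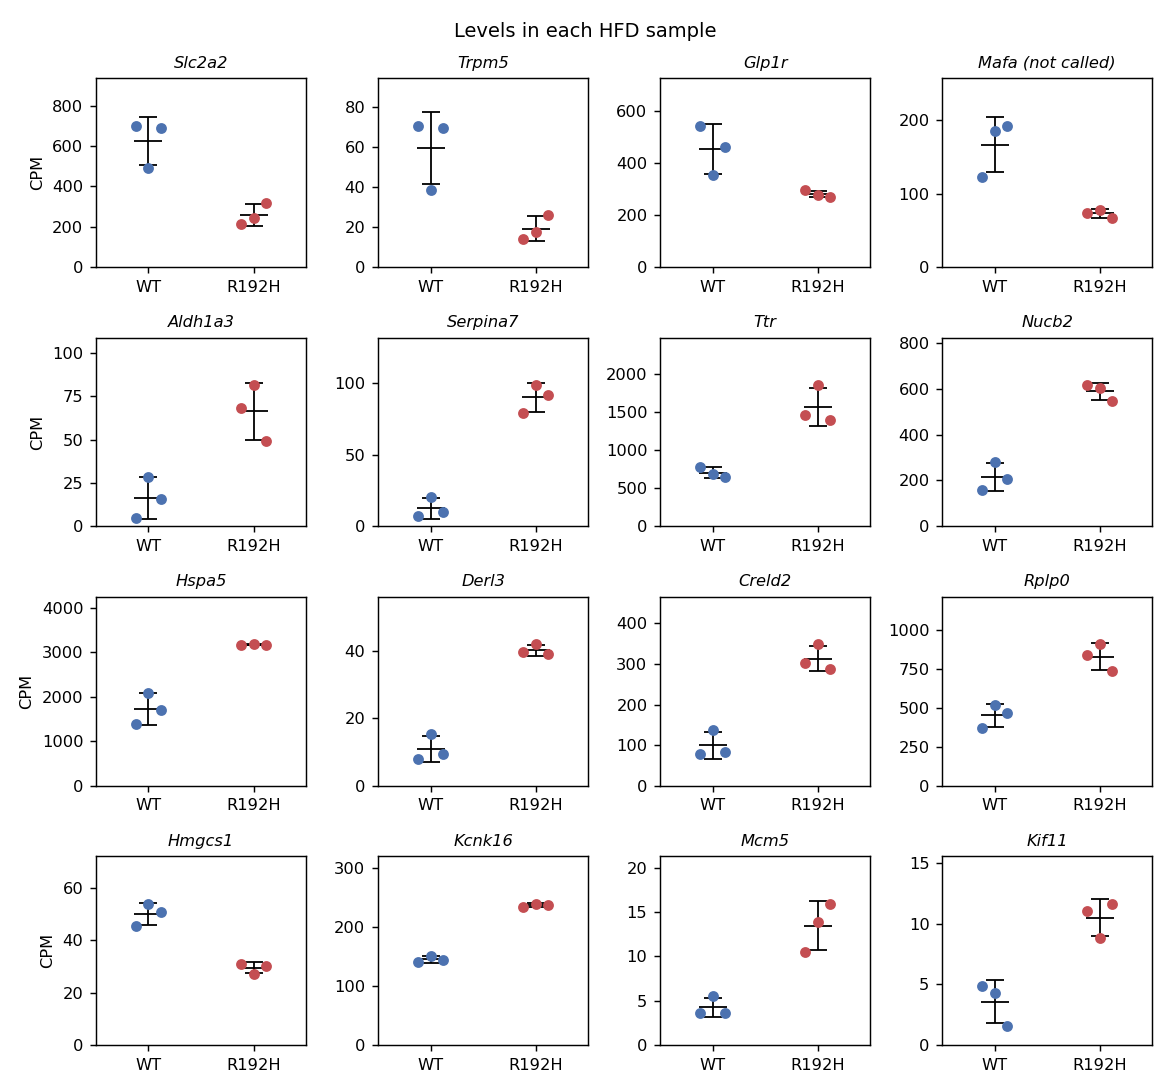
CPM of 16 genes in each HFD sample, with wildtype in blue and *Pax4* R192H in red, each axis starting at 0, and the bars giving the mean and the SD (n = 3). In all 16 panels the 3 *Pax4* R192H samples lie on one side of the 3 wildtype samples, *Mafa* included, which was not called.

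Some lipid synthesis genes were called lower. Of 33 tested genes of cholesterol and fatty acid synthesis, 29 were below 0, 17 of them without overlap (9.89% of all genes), and 5 were called lower (0.820% of all genes were) with 0 higher. The median was -0.32, and with the acinar covariate it was -0.41. With library sizes that leave out the 2 most abundant genes and no TMM scaling it was -0.60, and 15 were called lower. Of all 19137 tested genes, 1068 were called lower there, and their median was -0.30. *Hmgcs1* (ENSMUSG00000093930; chromosome 13, 119690379 to 119708260), the cytosolic HMG-CoA synthase of the sterol pathway, had 45.3, 54.0 and 50.6 CPM in wildtype and 31.1, 27.1 and 30.3 CPM in *Pax4* R192H samples (log2 fold change -0.76 ± 0.15, edgeR adjusted p = 0.0198). *Elovl5*, a fatty acid elongase, had 90.2, 98.3 and 106 CPM in wildtype and 57.7, 61.7 and 65.0 CPM in *Pax4* R192H samples, and fell by 0.68 ± 0.13 on the log2 scale (edgeR adjusted p = 0.0166). *Hsd17b7*, which acts late in cholesterol synthesis, fell by 0.95. *Hmgcs1* and *Elovl5* were called in 2 of the 6 fits that leave out a sample and *Hsd17b7* in 0. *Elovl5* falls outside the rule for named genes and was chosen after its values were seen. Without *Pax4* R192H sample 1 or sample 3, 1 of the 33 genes was called. On the SCD the list median was -0.13 and in *Pax4* βiKO islets 0.10.

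Cell cycle genes held calls in the higher direction alone. All 27 tested S phase genes were above 0, 20 without overlap (13.0% of all genes), and 9 were called higher (1.46%), with a median of 1.09. All 25 tested G2 and mitosis genes were above 0, 23 without overlap (13.0% of all genes), and 7 were called higher (1.46%), with a median of 1.56. *Cdc45*, which opens DNA at replication forks, had 1.84, 2.80 and 2.14 CPM in wildtype and 6.44, 7.13 and 7.19 CPM in *Pax4* R192H samples (log2 fold change 1.62 ± 0.24, edgeR adjusted p = 0.00509). *Mcm5*, of the replicative helicase, had 3.60, 5.49 and 3.65 CPM in wildtype and 10.5, 13.9 and 16.0 CPM in *Pax4* R192H samples (log2 fold change 1.67 ± 0.28, edgeR adjusted p = 0.0109). *Rrm2* and *Tyms*, which supply nucleotides, rose by 1.36 and 1.15.

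Among the mitotic genes, *Tpx2*, a spindle factor, had 2.85, 2.70 and 0.677 CPM in wildtype and 11.2, 8.48 and 9.10 CPM in *Pax4* R192H samples, and the kinesin *Kif11* had 4.85, 4.30 and 1.56 CPM against 11.1, 8.81 and 11.7 CPM. *Hmmr* and *Nusap1*, which bind the spindle, rose by 2.10 and 1.72. *Mki67*, the gene of the proliferation marker Ki-67, had 21.4, 12.0 and 3.57 CPM in wildtype and 57.3, 32.1 and 38.7 CPM in *Pax4* R192H samples, without overlap and not called (log2 fold change 1.79, edgeR adjusted p = 0.0747). Wildtype sample 3 was the lowest in the mitotic list, which summed to 106, 106 and 31.3 CPM in wildtype and to 280, 219 and 252 CPM in *Pax4* R192H samples. Without wildtype sample 3, the median of the mitotic list was 1.23 and 4 members were called, and without any single *Pax4* R192H sample 1 was called. For S phase genes, 1 was called without wildtype sample 3 or *Pax4* R192H sample 3, and 2 without *Pax4* R192H sample 2. With the acinar covariate the medians were 1.12 for S phase and 0.92 for mitosis, and 0 were called. These bulk counts do not show which cells held this RNA. In its single-cell data, the study reports higher chromosome segregation genes in a β cell cluster that was enlarged in HFD-fed *Pax4* R192H islets. By staining for Ki67 protein and insulin, it reports that the HFD induced β cell proliferation in wildtype but not in *Pax4* R192H mice. RNA of whole islets and stained β cells are unlike measures. The D-type cyclins *Ccnd1* (log2 fold change 0.29) and *Ccnd2* (-0.28) overlapped and were not called.

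Histone genes of the replication-dependent clusters were taken by name after their values were seen. Of 62 tested, 59 were above 0 (48.6% of all genes) and 18 were called higher (1.46%), with a median of 0.85. Their summed level was 961, 1073 and 1072 CPM in wildtype and 1375, 1588 and 1587 CPM in *Pax4* R192H samples, and between 632 and 949 CPM in the 6 SCD samples. *Hist1h2bm* had 3.17, 3.34 and 2.27 CPM in wildtype and 10.8, 11.1 and 12.5 CPM in *Pax4* R192H samples (log2 fold change 1.97 ± 0.23, edgeR adjusted p = 0.00195). These messages lack a poly(A) tail, and libraries made from total RNA can hold them. The copies are near-identical in sequence, so single members are uncertain.

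Smaller groups of genes also held calls. Of 16 circadian clock genes, 13 were below 0 and the output factors *Tef* (13.6, 12.4 and 15.5 CPM in *Pax4* R192H against 38.7, 17.6 and 30.0 CPM in wildtype samples) and *Bhlhe41* were called lower (0.820% of all genes were), each in 1 of the 6 fits that leave out a sample. The times of day at which islets were taken were not given in the sources used here. The metallothionein *Mt1*, which binds zinc and is induced by glucocorticoids, had 53.5, 50.9 and 66.5 CPM in wildtype and 24.0, 28.9 and 25.9 CPM in *Pax4* R192H samples (log2 fold change -1.12 ± 0.14, edgeR adjusted p = 0.00243). Among NRF2 targets, *Gpx2* and *Txn1* rose by 1.17 and 0.75 while *Nqo1* fell by 1.08, 3 of 23 tested (1.46% of all genes were called higher and 0.820% lower). *Gpx2* was called in 2 of the 6 fits, and *Txn1* and *Nqo1* in 1 each. *Tph2*, a serotonin synthesis enzyme, rose by 2.00 from at most 0.373 CPM, and *Tnfrsf11b*, which encodes osteoprotegerin and responds to prolactin in β cells, by 1.14, called in 0 and 2 of the 6 fits. *Prlr*, the prolactin receptor, overlapped (log2 fold change -0.21). Immediate early (16 tested), heat shock (17), interferon (23), p53 (15) and glycolysis (15) genes held 0 calls.

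The genotype difference on the HFD was set against that on the SCD, where 0 of the 19137 genes were called by edgeR (629, or 3.29%, had an unadjusted p-value below 0.05, and DESeq2 called 23). No sample is shared between these comparisons. The 280 genes called higher on the HFD had a median log2 fold change of 1.00 there and -0.02 on the SCD, and the 157 called lower had -0.92 and 0.03. The interaction of genotype and diet, the test of the difference between both effects, was called for 25 genes (0.131%), 17 (0.0888%) in which the HFD effect was the more positive and 8 (0.0418%) in which it was the more negative. With library sizes that leave out the 2 most abundant genes and no TMM scaling the split was 5 and 20, and with the replicate block or the acinar covariate 0 genes were called. The 25 include *Dapl1* (difference of 2.94 ± 0.34, edgeR adjusted p = 0.0135), *C1qtnf1*, *Serpina7*, *T2*, *Gad1*, *Kcnj12*, *Slc39a11*, *Mt1* and 8 histone genes. No member of the folding, ERAD, ribosomal protein, glucose sensing or cholesterol lists was among them. The count was 101 without wildtype HFD sample 2, 45 without wildtype SCD sample 2 and between 0 and 11 without any other sample.

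Acinar markers had the other sign in the remaining comparisons. The median of the acinar markers was -0.21 on the SCD and -0.67 in *Pax4* βiKO against control islets, where 29 of 30 were below 0 and the summed level was 125038 and 28387 CPM in controls and 98733, 19845 and 26436 CPM in *Pax4* βiKO samples. The genes called in *Pax4* R192H islets mostly lay on the same side in *Pax4* βiKO islets. Of the 278 genes called higher on the HFD and tested there, 252 (90.6%) were above 0, with a median of 0.32, and of the 157 called lower, 147 (93.6%) were below 0, with a median of -0.36. Of all tested genes, 51.8% were above 0. By edgeR, 5 of the higher and 4 of the lower genes were also called in *Pax4* βiKO islets, where 18 genes were called in all (0.0893%).

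**Figure D5:**
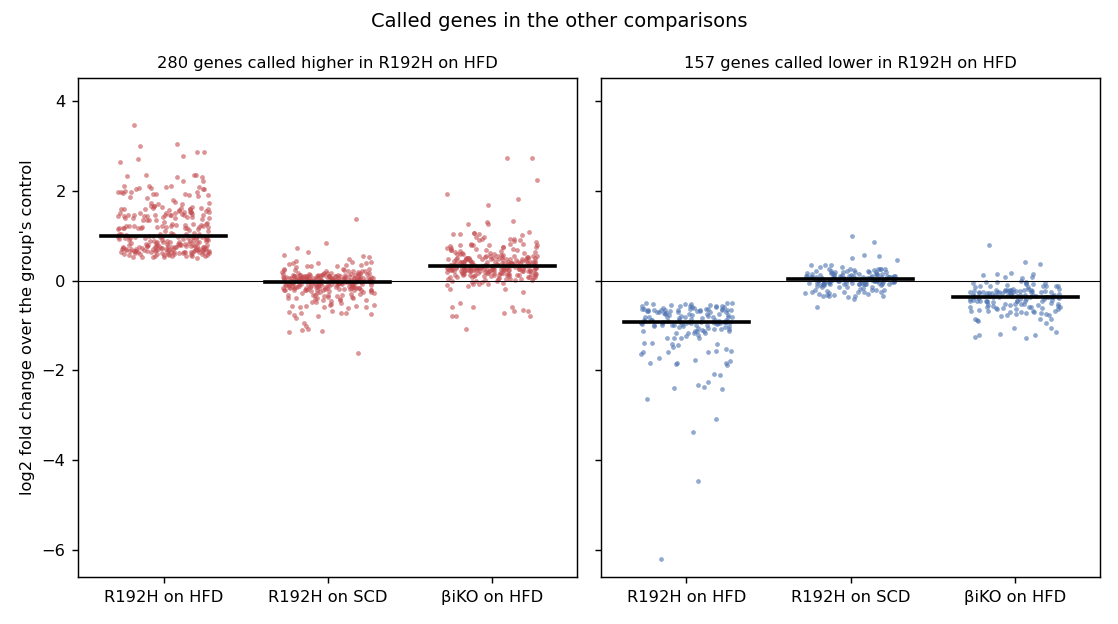
Log2 fold changes of the 280 genes called higher (left) and the 157 called lower (right) in *Pax4* R192H islets on the HFD, shown for that comparison, for *Pax4* R192H on the SCD and for *Pax4* βiKO on the HFD, with the median as a black bar. The medians were 1.00, -0.02 and 0.32 on the left and -0.92, 0.03 and -0.36 on the right.

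The lists followed in part. In *Pax4* βiKO islets the median was 0.25 for ER folding genes (33 of 37 above 0), 0.28 for ER translocation (31 of 33), 0.68 for mitosis (25 of 25), 0.28 for S phase (24 of 27), -0.19 for glucose sensing and -0.25 for β cell transcription factors (0 of 23 above 0), with 0 members of these 6 lists called. The mitotic list summed to 90.2 and 117 CPM in control and 220.1, 89.3 and 146 CPM in *Pax4* βiKO samples, so the groups overlapped and *Pax4* βiKO sample 2 lay below both controls. The sums of glucose sensing genes overlapped as well. *Serpina7*, *Aldh1a3* and *Prss23*, a serine protease gene, were called higher in both, with log2 fold changes in *Pax4* βiKO islets of 2.23, 2.72 and 1.27, as were the unnamed models *Gm2115* and *Gm34225*. *Trpm5*, *T2*, the inositol kinase *Itpkb* and the synaptic gene *Rims3* were called lower in both, with -1.14, -1.22, -0.73 and -0.87 (edgeR adjusted p = 0.0499 for *T2*). *Prss23*, the 2 models, *Itpkb* and *Rims3* fall outside the rule for named genes and are given because they complete the count. *Dapl1* had 61.8 and 88.8 CPM in control and 213, 163 and 169 CPM in *Pax4* βiKO samples (log2 fold change 1.27, edgeR adjusted p = 0.0821). Neither *Gad1* (-0.86) nor *Slc2a2* (-0.76) nor *Creld2* (0.82) passed the test there. *Kcnk16*, which was called in *Pax4* R192H islets, had a log2 fold change of 0.10. Whether these differ between the mouse lines was not tested, and age and time on the diet also differ between the lines.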

How the data were processed

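RNA of 17 islet samples was sequenced from stranded total RNA libraries, and the authors aligned reads with STAR 2.7.1 to mm10 and estimated gene levels with RSEM 1.3.3 (versions from the submitters' processing notes). The authors deposited expected counts per gene, in 1 table for *Pax4* R192H and 1 for *Pax4* βiKO samples, which were tested separately. Whether the counting used strand is not given in the sources used here, so overlapping and antisense genes are uncertain. Expected counts were rounded to whole numbers, and genes were kept by edgeR's filterByExpr (minimum count 10), which left 19137 of 78239 gene IDs. Of those tested, 90.7% matched a name in the annotation.

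All 12 *Pax4* R192H and wildtype samples entered 1 edgeR 4.0.16 quasi-likelihood fit (R 4.3.3, TMM scaling, 1 coefficient per group). Calls needed a Benjamini-Hochberg adjusted p below 0.05 and a log2 fold change beyond 0.5. CPM per sample are scaled by TMM, and log2 CPM used a prior count of 2. Replicates are the labels' biological replicates. Where these are pools or share animals, p-values measure only the spread between them. A count of 0 allows a share of up to 1.24e-05% of the counts (3 counts, counting error only), or 9.10e-06% in the HFD samples. Alternatives were other scalings, filters, DESeq2 1.42.0, a replicate block, an acinar covariate, HFD samples alone and each sample left out. The pipeline was tested on simulated data.

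Members and gene lists were chosen with earlier results of these data known, and the lists include genes the study named. Named genes were the 12 largest called increases and decreases with a mean of at least 1 CPM and no overlap. Unnamed genes and those with only a model or clone name were left out of these rankings. Added to them were the 5 lowest p-values, up to 4 called genes of each list by size, and a fixed set of islet, stress, cycle and acinar genes. This gave 121 genes in all, of which 118 were tested and 92 called. A few of them are not reported here.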

Additional observations from a re-analysis of the deposited data

Results flagged for a closer look

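The genotype effect differed between the diets in 25 genes by the interaction test of edgeR (adjusted p below 0.05), and their values are differences in log2 fold change, HFD minus SCD. With the replicate block, with the acinar covariate or without *Pax4* R192H HFD sample 2, 0 genes were called, and without wildtype HFD sample 1, wildtype SCD sample 1 or 3 or *Pax4* R192H SCD sample 1, 1 was. None was weighed for a cause, and diet and age differ together between the groups.

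Where the HFD effect was the more positive, the difference was 3.06 for *C1qtnf1*, 3.04 for *Cdca3*, 3.00 for *Serpina7*, 2.94 for *Dapl1*, 1.71 for *Aaas*, 1.27 for *Csrp1*, 1.17 for *Slc39a11*, 0.98 for *Ly6e* and 2.64 for the unnamed gene ENSMUSG00000120992.2. The histone genes had differences of 2.88 for *Hist1h3c*, 2.53 for *Hist1h3h*, 2.51 for *Hist1h2bm*, 2.04 for *Hist1h2bk*, 1.88 for *Hist1h4a*, 1.65 for *Hist1h2ap*, 1.21 for *Hist1h2bg* and 1.16 for *Hist1h3f*, and their copies are near-identical.

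Where it was the more negative, the difference was -2.88 for *T2*, -2.07 for *Gm34759*, -1.93 for *Kcnj12*, -1.89 for *Gad1*, -1.29 for *Ulk4*, -1.17 for *Mt1* and -0.92 for *Zfp568*. For *Gm43126* the fitted value was -13.0, which rests on a group listed at 0 in all 3 wildtype SCD samples and depends on the fit. It was not called on the HFD.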

How the results depend on the processing

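The HFD comparison called 437 genes (280 higher, 157 lower). RLE and upper-quartile scaling gave 430 and 432, the 6 HFD samples alone 335, and a minimum of 10 counts in every sample 639, with 443 higher. With library sizes without the 2 most abundant genes and no TMM it called 1217 (149 higher, 1068 lower), with no filter 1279 (789 and 490), with DESeq2 918 (616 and 302) and with the acinar covariate 0 in either direction. Leaving out 1 sample gave 93 to 498 (61 to 288 higher, 32 to 210 lower). Samples of both genotypes with the same replicate number had r between -0.0526 and 0.193, and those with different numbers between -0.235 and 0.140. With 3 samples per group, these values cannot show whether replicate numbers pair the samples. A fit with a replicate block called 147 genes (93 higher, 54 lower). The cause of these changes was not tested.

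On the SCD, 0 genes were called, 261 with no filter (116 higher, 145 lower), 23 by DESeq2 (5 and 18) and 0 to 2 without 1 sample (0 higher, 0 to 2 lower). The interaction was called for 25 genes (17 and 8). It was called for 5 more positive and 20 more negative genes with library sizes without the 2 most abundant genes and no TMM, 708 with no filter (464 and 244), 80 with 10 counts in every sample (62 and 18), 314 by DESeq2 (215 and 99), 0 with the replicate block or the acinar covariate, and 0 to 101 without 1 sample (0 to 67 and 0 to 34). In *Pax4* βiKO islets, 18 genes were called, 697 with no filter, 251 by DESeq2, 88 with a replicate block and 2 to 28 without 1 sample.

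Some log2 fold changes turned sign, not all of them near 0. With library sizes without the 2 most abundant genes these were *Ins1* (-0.14), *Chga* (-0.0038) and *Atf4* (-0.24), and 13 of the 46 list medians, those of disallowed genes (-0.12), δ, PP and ε cell markers (-0.26), UPR sensors (-0.24), p53 targets (-0.16), heat shock genes (-0.25), endothelial (-0.16) and macrophage (-0.23) markers, the integrated stress response (-0.14), translation factors (-0.071), glycolysis (-0.15), fatty acid oxidation (-0.13), cyclins (-0.016) and NRF2 targets (-0.062). With the acinar covariate they were *Pnliprp1* (-0.051), *Cela3b* (-0.080), *Gcg* (0.14), *Ddit3* (0.027), *Ldha* (-0.040), *Prss2* (-0.053), *Cpa1* (-0.23) and *Ptf1a* (-0.075), and 10 list medians, those of *Reg* (2.04 to -0.057), acinar (1.52 to -0.079), duct (0.32 to -0.025), T and B cell (1.12 to -2.36), α cell (-0.04 to 0.45), dedifferentiation (-0.06 to 0.30), disallowed (0.18 to -0.011), p53 (0.11 to -0.017), δ, PP and ε (0.02 to -0.0072) and Schwann cell (-0.07 to 0.37) lists. *Prss2* (1.60) and *Ldha* (0.56) were among those not near 0. The acinar genes among them make up the covariate itself. Without 1 sample, 0 to 6 list medians turned sign, and log2 fold changes ranged from -0.19 to 0.23 for *Gcg* (above 0 without wildtype sample 1 or *Pax4* R192H sample 1), from -0.11 to 0.14 for *Atf4* (below 0 without wildtype sample 1 or *Pax4* R192H sample 2), from -0.45 to 0.10 for *Ccnd2* (above 0 without wildtype sample 1) and from -0.40 to 0.082 for *Trib3* (above 0 without wildtype sample 2 or *Pax4* R192H sample 3).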
